A study of Mus musculus with 3 samples.

Results

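Control stage-shared peaks missing without Seh1 are sites of open chromatin that were called in control cells both before and after the start of differentiation and were not called in differentiating cells that lack Seh1. They are peaks of the control day 1 library that lie on an autosome, that have a summit pileup of at least 1 FPM (fragments per 1000000 fragments in the library), that overlap a control day 0 peak by at least 1 bp, and that overlap no peak of the Seh1cKO day 1 library. The rule finds 5115 such peaks of 118441 in the control day 1 library, and they are called missing peaks here. Of the control day 1 peaks, 37434 were autosomal and at the pileup threshold. Of these, 31790 were stage-shared, and the other 26675 of the stage-shared peaks, which a Seh1cKO peak did overlap, are called kept peaks. Of all 37434, 25.6% had no Seh1cKO peak. The missing peaks were thus chosen by the calls in all 3 libraries and by pileup in control day 1, which are given as a description and not as findings.

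Open chromatin was profiled by ATAC-seq, in which a transposase cuts and tags accessible DNA, in 3 libraries, 1 per group. The groups were Seh1cKO cells at day 1, control cells at day 1 and control cells at day 0, and all came from C57BL/6 mice. The controls are labelled wild type, and the Seh1cKO cells carry a conditional knockout of Seh1, encoded by Seh1l. The Cre driver, the deleted exons and the extent of the loss are not given in the sources used here. Oligodendrocyte progenitor cells, the precursors of the myelin-forming cells of the brain, were immunopanned from cortices of pups of postnatal day 4 to 7, and each library was made from 50000 cells. Day 0 cells were grown with PDGF-AA at 20 ng/ml, bFGF at 20 ng/ml and NT3 at 1 ng/ml. For the day 1 cells these 3 factors were removed and triiodothyronine (T3), the thyroid hormone that drives differentiation in culture, was added at 60 nM. CNTF at 10 ng/ml, B-27 at 2% and N2 at 1% were common to all groups. The day 0 sample is titled with the letters DO, which were read as day 0. How many animals were pooled is not given, and no group has a replicate, so there is no test between groups.

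Seh1 is a subunit of the Y complex, the scaffold of the nuclear pore, and the series title links it to Olig2, a basic helix-loop-helix factor of the oligodendrocyte lineage, and to Brd7, a subunit of a SWI/SNF chromatin remodeller. Open sites at promoters are found in most cell types, whereas open sites within introns and between genes are often enhancers, which differ between cell types and stages. Basic helix-loop-helix factors bind E-boxes, and Sox10 and its relatives, which work beside Olig2 in this lineage, bind short Sox motifs.

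Depth was 10845533 fragments in Seh1cKO day 1, 18260883 in control day 1 and 23403600 in control day 0. The number of peaks was 46113 in Seh1cKO day 1, 118441 in control day 1 and 108788 in control day 0. Seh1cKO thus had 59.4% of the depth of control day 1. The lowest pileup called was 0.553 FPM in Seh1cKO, 0.438 in control day 1 and 0.385 in control day 0. Of 8 progenitor genes taken to check the cells, 7 had a peak within 1000 bp of a gene end in each library, controls included. The gene without one in Seh1cKO was Cspg4. None of the 3 stage-shared peaks within Cspg4 or 10 kb of it was missing in Seh1cKO. Gene ends of neuron markers were open at 13 of 24 genes in Seh1cKO, 21 in control day 1 and 18 in control day 0, and those of astrocyte markers at 17 of 20 in each library. For microglia and macrophage markers the counts were 5, 7 and 9 of 22 genes, and for endothelial and mural markers 6, 10 and 11 of 24, in the same order of libraries. Depth and the neuron, microglia and macrophage, and endothelial and mural counts differ between Seh1cKO and control together with the genotype, and with 1 library per group they cannot be told apart from it.

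A promoter table from RefSeq (GRCm38.p6) gives sequence only around transcription starts, so sequences can be shown for the missing peaks at promoters. Each listed promoter runs from 250 bases before to 50 bases after a start, 300 bases in all. Missing peaks, with no kept peak, overlapped 188 of 20063 autosomal promoters, at 175 genes, and 36 promoters lay wholly inside a missing peak. The 5 below are among the 7 strongest of those 36 and are the ones that hold an E-box or Sox motif. They were chosen after their values were seen, because the 8 strongest missing peaks at gene ends overlapped no listed promoter of their genes. They are shown so that the letters under a missing peak can be read beside its values. Capitals mark the motifs CAGATG and CATATG and CAGCTG (E-boxes) and ACAATG and ACAAAG (Sox), searched on both strands, so that CATCTG is CAGATG on the other strand.
Cdhr4: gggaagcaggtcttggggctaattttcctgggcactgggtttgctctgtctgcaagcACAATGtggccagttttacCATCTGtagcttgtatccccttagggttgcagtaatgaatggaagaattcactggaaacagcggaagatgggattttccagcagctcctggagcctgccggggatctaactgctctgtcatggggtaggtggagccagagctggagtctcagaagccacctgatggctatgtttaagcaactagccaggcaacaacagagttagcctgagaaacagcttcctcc
Cux2: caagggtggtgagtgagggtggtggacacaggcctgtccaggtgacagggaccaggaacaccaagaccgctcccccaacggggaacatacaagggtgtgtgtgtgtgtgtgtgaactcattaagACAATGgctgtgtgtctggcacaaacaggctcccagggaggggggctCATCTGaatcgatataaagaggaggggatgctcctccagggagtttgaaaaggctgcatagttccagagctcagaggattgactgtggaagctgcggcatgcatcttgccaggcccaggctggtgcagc
Epor: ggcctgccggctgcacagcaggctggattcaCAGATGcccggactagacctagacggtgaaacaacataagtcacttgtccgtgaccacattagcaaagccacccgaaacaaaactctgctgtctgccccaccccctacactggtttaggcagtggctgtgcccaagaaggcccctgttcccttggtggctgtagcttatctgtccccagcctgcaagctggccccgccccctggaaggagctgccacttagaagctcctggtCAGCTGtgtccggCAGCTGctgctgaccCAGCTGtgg
Gjc3: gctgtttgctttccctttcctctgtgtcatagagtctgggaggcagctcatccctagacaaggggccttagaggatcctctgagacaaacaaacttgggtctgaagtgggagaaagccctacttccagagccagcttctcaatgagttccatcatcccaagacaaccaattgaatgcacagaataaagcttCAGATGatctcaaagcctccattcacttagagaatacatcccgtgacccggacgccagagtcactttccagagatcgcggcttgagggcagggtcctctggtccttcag
Ubtf: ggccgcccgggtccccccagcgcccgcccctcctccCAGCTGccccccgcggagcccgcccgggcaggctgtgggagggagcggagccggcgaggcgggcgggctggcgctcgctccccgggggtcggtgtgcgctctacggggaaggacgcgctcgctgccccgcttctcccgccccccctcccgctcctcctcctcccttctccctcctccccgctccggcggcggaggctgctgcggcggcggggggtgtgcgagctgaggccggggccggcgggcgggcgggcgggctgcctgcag

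The Cdhr4 promoter (chr9:107992207-107992506, + strand) lies in a missing peak with 2.74 FPM in control day 1 and 0.641 in control day 0. It holds 1 CAGATG and 1 ACAATG. The Cux2 promoter (chr5:122047776-122048075, - strand), of a homeobox factor known from cortical neurons, lies in a peak with 2.63 FPM in control day 1 and 1.07 in control day 0, and holds the same 2 motifs. The Epor promoter (chr9:21963527-21963826, - strand), of the erythropoietin receptor, had 2.30 FPM in control day 1 and 0.641 in control day 0, and it holds 1 CAGATG and 3 copies of CAGCTG close to the start. All 3 of these peaks were higher in control day 1, by 4.27, 2.46 and 3.59 times. The Gjc3 promoter (chr5:137963049-137963348, - strand), of a connexin of myelinating cells, lies in a missing peak with 2.03 FPM in control day 1 and 1.5 in control day 0. The day 1 summit of this peak, at 137963395, lies outside both the printed letters and the day 0 partner (chr5:137963013-137963323). Its 2 values thus compare different positions. The Ubtf promoter (chr11:102317822-102318121, - strand), of a transcription factor of ribosomal RNA genes, had 2.03 FPM in control day 1 and 1.28 in control day 0 and lies 273 bp from a Seh1cKO peak. It is the most GC-rich of the 5, with 82.3% GC and 39 CpGs, against 50.7% GC and 5 CpGs in the Gjc3 promoter. The Necab2 and Slitrk3 promoters, the other two of the 7, hold none of these E-box or Sox motifs.

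Over all promoters, those under missing peaks held fewer CpGs and fewer Ets motifs than those under kept peaks. A promoter counts as under a peak from 1 bp of overlap, and all its 300 bases were searched. Only 36 promoters lay wholly inside a missing peak, so a motif counted here can lie outside the peak. The median GC content was 60% under missing peaks, 62.7% under kept peaks and 57% over all listed promoters. The median number of CpGs was 16, 23 and 14 in the same order. An E-box of the 3 kinds lay in 34.6% of promoters under missing peaks (95% exact interval 27.8 to 41.8), in 24% of the 9826 under kept peaks and in 29.9% of all. A Sox motif of the 2 kinds lay in 26.1% (19.9 to 33), 17.4% and 24.9% of them. CCGGAAG, the Ets motif, lay in 7.45% (4.13 to 12.2), 20.2% and 11.9%, and CCAAT in 31.9%, 40.2% and 38.1%. TTGGCA, the NFI half-site, lay in 11.7%, 10.1% and 13.1%, AGGTCA, the nuclear receptor half-site, in 9.04%, 10.2% and 14.7%, and TGANTCA, the AP-1 motif, in 5.32%, 3.63% and 7.06%. For the E-boxes and the Sox, Ets, CCAAT, NFI and AP-1 motifs the intervals of the promoters under missing peaks include the share over all promoters. The interval of the nuclear receptor half-site, 5.36 to 14.1, lies below it. Motif content varies with base composition, which differs between the classes, and the part of that difference was not tested.

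Missing peaks were mostly weak and narrow, and their number depended on strength. Their control day 1 pileup had a median of 1.37 FPM, an interquartile range of 1.15 to 1.70 and a range of 1.04 to 14.3, against a median of 2.30 for kept peaks. This corresponds to a median of 25 fragments at the summit for missing peaks and 42 for kept peaks. The median width was 351 bp (interquartile range 256 to 472, range 100 to 1610) for missing peaks and 599 bp for kept peaks. The median fold over local background, the authors' own value, was 6.78 for missing peaks and 9.22 for kept peaks. The 4463 control day 1 peaks called in neither other library were weaker and narrower still, with medians of 1.26 FPM, 295 bp and a fold of 6.58. Of the stage-shared peaks as a whole 16.1% were missing in Seh1cKO, which restates the rule. The share was 34.1% at 1 to 1.5 FPM, 18.8% at 1.5 to 2, 8.92% at 2 to 3, 2.54% at 3 to 5 and 0.254%, or 9 of 3549 peaks, at 5 and over.

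Scaled to the Seh1cKO depth, the control day 1 pileup of a missing peak was 14.8 fragments in the median and at least 11.3. The lowest pileup called in Seh1cKO was 6, and 42.7% of its 45095 autosomal peaks lay under 11.3. The threshold of 1 FPM in control day 1, which the rule sets, places every scaled day 1 pileup above 6 in advance. The shares below that use control day 1 follow in part from this threshold, which all 3 classes of peaks share. When background was scaled alike, 97.6% of missing peaks reached the weakest −log10 p called in Seh1cKO, 3.49, and 55.3% reached its median, 8.68. These shares were 99.8% and 87.3% for kept peaks, and 94.3% and 44.4% for control day 1 peaks called in neither other library. The control day 0 pileups under missing peaks, scaled the same way, had a median of 9.27 fragments, and 89.2% reached 6, against 98.5% under kept peaks. These values cover depth at the summit only. They take no account of the sampling of fragments or of the minimum peak length of 100 bp. Kept peaks had a median Seh1cKO pileup in FPM of 0.842 times that in control day 1, and 0.918 times at 1 to 1.5 FPM. Kept peaks have a Seh1cKO call by definition, so sites below the lowest pileup called there are absent from these ratios. The lowest ratio was 0.374 at 1 to 1.5 FPM and 0.121 at 5 and over.

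At the pileup threshold, 570 missing peaks had the lowest value that passed, 19 fragments or 1.04 FPM, and 647 peaks that met the rest of the rule had 18 fragments or 0.986 FPM and were left out. The median width was 292 bp just inside and 283 bp just outside, and the median day 0 pileup was 0.726 FPM on both sides. Peaks just inside lie at Rims1, at Tgfbrap1 and near Ppp1r14bl, and peaks just outside at Kcnb2, at Khdrbs2 and near Il17a. In all, 8361 peaks met the rest of the rule below the threshold.

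The missing peaks lay mostly away from gene ends. Of the 5115, 13.9% (95% exact interval 12.9 to 14.9) lay within 1000 bp of an annotated end of a protein-coding gene, 52% (50.6 to 53.3) lay within a gene away from its ends, 24.9% lay between genes within 100 kb of one, and 9.21% lay farther away. For kept peaks the shares were 38.4%, 35.2%, 18.4% and 8.02%. The control day 1 peaks called in neither other library lay at gene ends in 11.0% and within genes in 54.8%, which is nearer to the missing peaks. The annotation gives no strand, so a gene end can be a start or a stop. Intervals cover counting error only, and neighbouring peaks are not independent.

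The share missing was lower at gene ends than within genes at every strength. At gene ends 24% of stage-shared peaks at 1 to 1.5 FPM were missing, and the shares in the next 4 strength classes were 9.43%, 2.84%, 0.814% and 0.0499%. Within genes the corresponding shares were 38.4%, 24.3%, 13.6%, 4.61% and 0.329%. In each class but the strongest, which holds 9 missing peaks in all, the intervals of the 2 positions did not overlap. Put the other way, gene ends held between 11.1% and 15.0% of missing peaks in the 5 classes. Among kept peaks the gene-end share was 23.0% in the weakest class and 56.6% in the strongest.

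**Figure D1:**
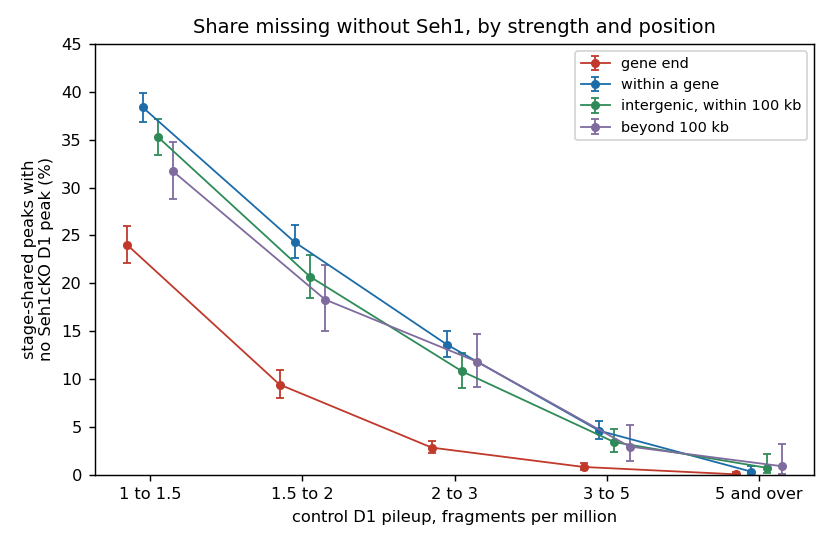
Share of stage-shared control day 1 peaks with no Seh1cKO peak, in percent (vertical axis), by control day 1 pileup in FPM (horizontal axis, 5 classes) and by position of the peak; points are shares and bars are 95% exact binomial intervals. Gene-end peaks lie lowest in every class, at 24% against 38.4% for peaks within genes in the weakest class.

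Missing peaks had a higher ratio of control day 1 to control day 0 than kept peaks. The day 0 pileup under missing peaks had a median of 0.855 FPM, an interquartile range of 0.641 to 1.11 and a range of 0.385 to 56.8, against a median of 1.67 under kept peaks. The ratio of control day 1 to control day 0 had a median of 1.66 (interquartile range 1.28 to 2.21, range 0.212 to 8.42) for missing peaks and 1.42 for kept peaks. The day 1 value was at least 1.5 times the day 0 value at 3080 missing peaks, or 60.2% (58.9 to 61.6), and at 11721 kept peaks, or 43.9%. Over all stage-shared peaks this share was 46.6%. The day 1 value was at most 1/1.5 of the day 0 value at 143 missing peaks, or 2.80%, where the share over all stage-shared peaks was 2.16%.

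Within strength classes the ratio separated further. From the weakest to the strongest class its median was 1.52, 1.86, 2.26, 3.18 and 3.22 for missing peaks and 1.23, 1.38, 1.43, 1.5 and 1.57 for kept peaks. The share at 1.5 times or more was 52.3%, 68.6%, 79.2%, 90.8% and 66.7% for missing peaks, and 31.4%, 41.3%, 44.8%, 50.1% and 58.1% for kept peaks. The control day 1 value is the numerator of the ratio, sets the classes and was used by the rule, so the ratio and the classes share 1 library. The widths also differed within classes, with medians of 324, 385, 439, 515 and 441 bp for missing peaks and 414, 526, 611, 709 and 809 bp for kept peaks. By position, the median ratio of missing peaks was 1.43 at gene ends, 1.68 within genes, 1.73 between genes and 1.83 beyond 100 kb. For kept peaks it was between 1.41 and 1.45 at all 4 positions.

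**Figure D2:**
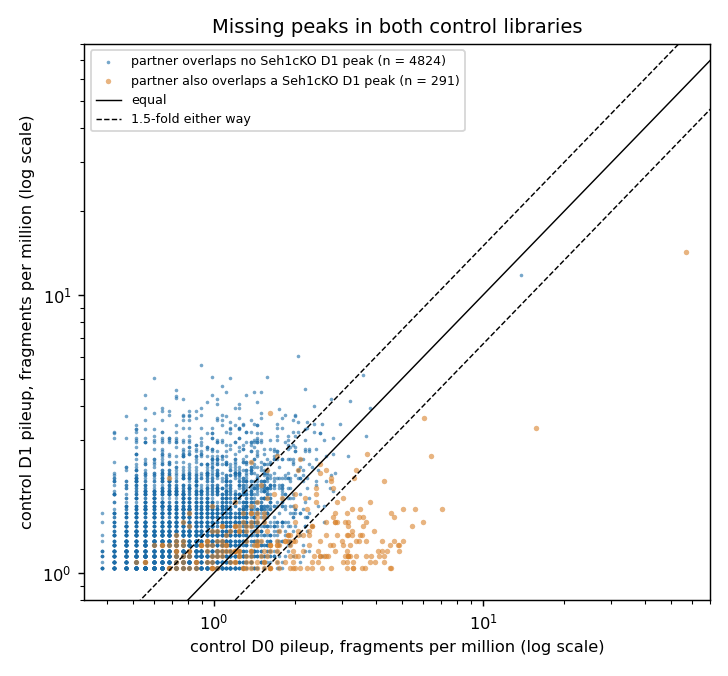
Summit pileup of each of the 5115 missing peaks in control day 1 (vertical axis) and in the strongest overlapping control day 0 peak (horizontal axis), both in FPM on log scales. The solid line marks equal values and dashed lines 1.5-fold either way; the 291 peaks whose day 0 partner also overlaps a Seh1cKO peak lie mostly to the right, with a median ratio of 0.755, and the other 4824 lie mostly to the left, with a median of 1.71.

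The missing peaks fell into classes by what lay under their day 0 partner, a split chosen after the values were seen. For 291 of them, or 5.69%, the overlapping day 0 peak also overlapped a Seh1cKO peak. These had a median width of 256 bp in day 1 beside a day 0 partner of 851 bp, a median distance of 112 bp to the nearest Seh1cKO peak, and a gene-end share of 47.1%. The median ratio of control day 1 to control day 0 was 0.755 there. For the other 4824, or 94.3%, the median width was 358 bp in day 1 and 257 bp in day 0, the median distance 7561 bp, the gene-end share 11.9% and the median ratio 1.71. The split itself requires a Seh1cKO peak on the day 0 partner, so the short distance in the first class follows largely from it. A wide partner also meets the split more easily. Of the 143 missing peaks at most 1/1.5 of their day 0 value, 122, or 85.3%, were in the first class. The 4 missing peaks with the lowest ratios were all in it.

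Those 4 lay beside day 0 partners of 911 to 1334 bp, and each had a Seh1cKO peak 45 to 159 bp away. The lowest ratio was 0.212, near Tcte2 (chr17:13551841-13551960), with 3.34 FPM in control day 1 and 15.8 in control day 0. The next, near Efcab11 (chr12:99672123-99672235), had 1.04 in control day 1 and 4.57 in control day 0. At Dnm2, which encodes the membrane-cutting GTPase dynamin 2, the values were 1.04 and 4.53, and at Usp22, which encodes a histone deubiquitinase of the SAGA complex, they were 1.70 and 7.05. In all 4 the control day 1 value is the lower one and the control day 1 peak is 113 to 144 bp wide. Each of these narrow peaks covers only a part of its day 0 partner, and the ratio uses the summit of the whole partner. Whether the whole site was lower at day 1 was not tested.

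Most missing peaks had no Seh1cKO peak close by. A Seh1cKO peak lay within 100 bp of 3.66% of them, within 500 bp of 13.5%, within 1000 bp of 20.4% and within 10 kb of 58.9%, with a median gap of 6598 bp. For control day 1 peaks called in neither other library these shares were 2.22%, 10.9%, 18.1% and 57%, with a median gap of 6987 bp. A kept peak lay within 10 kb of 47.0%, and another missing peak within 10 kb of 13.6%. The day 0 partner covered a median of 61.6% of the width of a missing peak.

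The strongest missing peak by pileup was at chr9:3023821-3023930, with 14.3 FPM in control day 1 and 56.8 in control day 0, and the second at chr9:3013420-3013535, with 11.8 in control day 1 and 13.9 in control day 0. Both stand apart from the rest: they are 110 and 116 bp wide, their fold over local background is 1.52 and 2.02, Seh1cKO peaks lie 92 and 102 bp away, and the nearest gene, Alkbh8, is 311301 and 321696 bp away. Of all missing peaks 6 had a fold under 2. The other 10 of the 12 strongest had folds of 4.93 to 17.5 and were all higher in control day 1 than in control day 0. They were ranked by the control day 1 value, whereas control day 0 needed only a call, so the choice itself favours a higher day 1 value. The same applies to the strongest peaks at promoters, gene ends and listed genes.

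Of those 10, the peak within Tnr (chr1:159574790-159575511), the gene of tenascin-R, an extracellular matrix protein made by oligodendrocytes, had 5.04 FPM in control day 1 and 0.598 in control day 0. Its ratio of 8.42 was the highest of all missing peaks, and the nearest Seh1cKO peak lay 4147 bp away. The day 0 partner (chr1:159574749-159574902, 14 fragments) does not cover the day 1 summit at 159575208, so this ratio compares different positions. A peak 83549 bp from Sox2 (chr3:34566006-34566446), a transcription factor of neural progenitors, had 5.09 in control day 1 and 0.983 in control day 0, with a Seh1cKO peak 388 bp away. A peak within App (chr16:85023038-85023562), the amyloid precursor gene, had 4.71 in control day 1 and 1.07 in control day 0, and the nearest Seh1cKO peak was 34868 bp away. The ratio of control day 1 to control day 0 was 5.18 near Sox2 and 4.41 within App.

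Dock4, which encodes an activator of the GTPase Rac1, held a peak (chr12:40494743-40495408) with 4.55 FPM in control day 1 and 0.726 in control day 0. A peak 3619 bp from Rnf8 (chr17:29645283-29646250), the gene of a ubiquitin ligase of the DNA damage response, had 5.59 in control day 1 and 0.897 in control day 0. A peak 34606 bp from Cetn3 (chr13:81831761-81832295), the gene of the centrosomal protein centrin 3, had 5.09 in control day 1 and 1.58 in control day 0 and its nearest Seh1cKO peak 47872 bp away. At these 3 sites control day 1 was 3.22 to 6.26 times control day 0. The peaks within Wdr95 and Midn had 6.02 and 5.15 in control day 1 and 2.05 and 3.59 in control day 0.

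After Tnr, ratios of 7.81 and 7.56 were among the highest. They belonged to a peak within Fbxw11, which encodes a substrate receptor of an SCF ubiquitin ligase, with 3.67 FPM in control day 1 and 0.470 in control day 0, and a peak within Adamts17, a metalloprotease gene, with 3.23 FPM in control day 1 and 0.427 in control day 0. The nearest Seh1cKO peaks lay 52189 and 23657 bp away. Their day 0 pileups were 11 and 10 fragments, and the lowest called at day 0 was 9. At Adamts17 the day 0 partner ends at 66986866, before the day 1 summit at 66986948, so the ratio compares different positions.

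The strongest missing peaks at gene ends included that of Ap2a1 (chr7:44900004-44900388), which encodes a subunit of the clathrin adaptor AP-2, with 5.04 FPM in control day 1 and 1.15 in control day 0. The start listed for this gene lies at its other end. Hes3, of the Hes family of transcriptional repressors, had a peak 292 bp from its end (chr4:152292203-152292738) with 4.05 in control day 1 and 1.24 in control day 0. Both were over 3 times higher in control day 1, by ratios of 4.37 and 3.27. Cops9, a subunit gene of the COP9 signalosome, had 3.56 in control day 1 and 0.812 in control day 0. Nsd2, which encodes a histone H3 methyltransferase, had 3.78 in control day 1 and 1.62 in control day 0 at a peak 179 bp from a Seh1cKO peak, and its day 0 partner overlapped a Seh1cKO peak. Adnp2, a homeobox zinc finger gene, was lower in control day 1, at 3.61 against 6.02 in control day 0, and its day 0 partner also overlapped a Seh1cKO peak. Iqcf6, Bricd5 and Gpr108 complete the 8 strongest, with 4.6, 4.22 and 4.00 in control day 1 and 2.18, 2.73 and 2.35 in control day 0.

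**Figure D3:**
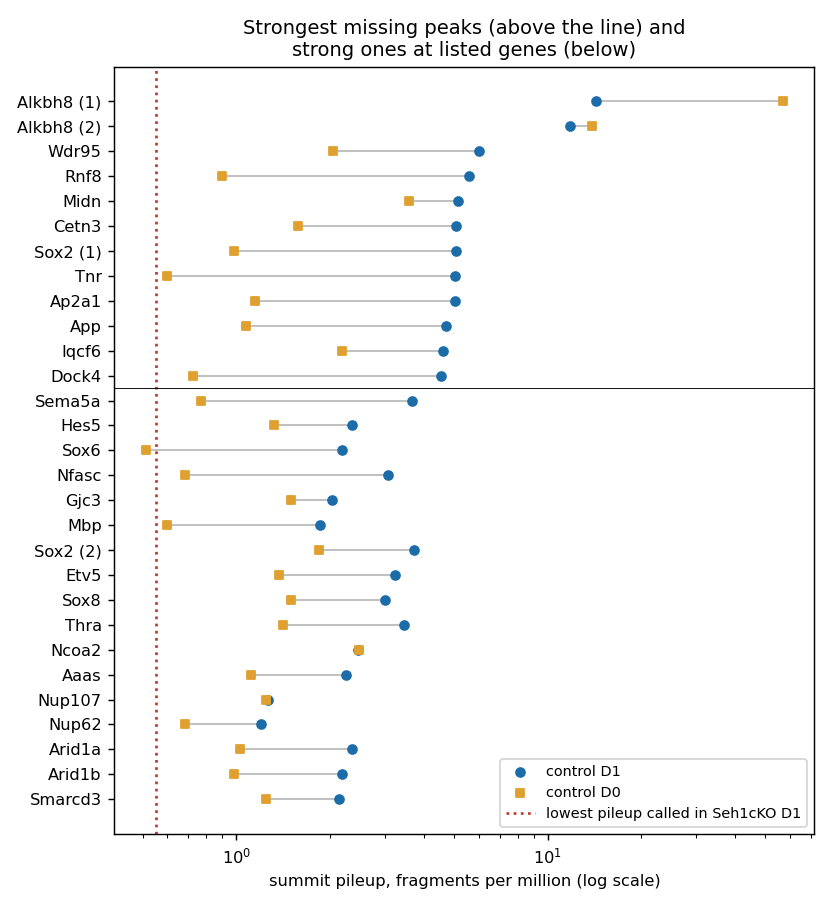
Summit pileup in FPM (log scale) in control day 1 (circles) and control day 0 (squares) of the 12 strongest missing peaks, named by nearest gene, above the line, and of strong missing peaks at genes of the progenitor, myelin, lineage regulator, thyroid hormone, nuclear pore and SWI/SNF lists below it. None has a Seh1cKO call, and the dotted line marks the lowest pileup called there, 0.553. In most pairs the circle lies right of the square, by up to 8.42 times at Tnr, where the day 0 peak does not cover the day 1 summit. The 2 peaks nearest to Alkbh8 lie the other way. At Nfasc, Gjc3 and Mbp too the day 0 peak does not cover the day 1 summit. The peaks shown were chosen by their day 1 pileup.

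A missing peak lay within or within 10 kb of 3571 of 20665 autosomal protein-coding genes, or 17.3%. Of these genes 89.8% also had a kept peak, 2800 had 1 missing peak, and 35 had at least 5. At 364 of the 3571 genes every stage-shared peak was missing. Genes with only 1 stage-shared peak, such as Sec13, are among these, and how many they are was not counted. Long genes held more: 57% of genes over 200 kb had a missing peak, against 9.30% of genes up to 10 kb, and 19.5% and 12.3% of the stage-shared peaks of these genes were missing.

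The 8 genes with most missing peaks were Opcml with 9 of 24 stage-shared peaks, Csmd1 with 8 of 22, Sfi1 with 8 of 19, Lsamp with 8 of 22, Ctnnd2 with 8 of 19, Cmip with 7 of 15, Nfia with 7 of 21 and Npas3 with 7 of 17. Opcml and Lsamp encode neural cell adhesion molecules of the IgLON family, and Ctnnd2 encodes δ-catenin. At Opcml the missing peaks had 1.04 to 2.90 FPM in control day 1 and 0.385 to 1.62 in control day 0. At Lsamp they had 1.04 to 3.23 in control day 1 and 0.470 to 1.54 in control day 0, with a median ratio of 2.03, and the nearest Seh1cKO peak to any of them was 4389 bp away. At Sfi1 the median ratio was 1.03, and the 8 ratios ran both ways, between 0.698 and 1.85. The control day 1 −log10 q of the Sfi1 peaks was 2.63 to 15.3, against 9.98 to 48.0 at Lsamp. It was lowest at the Sfi1 peak with the highest pileup, 2.63 FPM.

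Nfia and Npas3 are transcription factor genes, and Nfia acts in the specification of glia. The 7 missing peaks of Nfia had 1.04 to 1.53 FPM in control day 1 and 0.555 to 1.88 in control day 0, all weak values, with a median ratio of 1.28. The whole locus had 24 peaks in Seh1cKO, 62 in control day 1 and 62 in control day 0. The Seh1cKO number is 38.7% of that in control day 1, near the 38.9% for all peaks of these libraries.

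**Figure D4:**
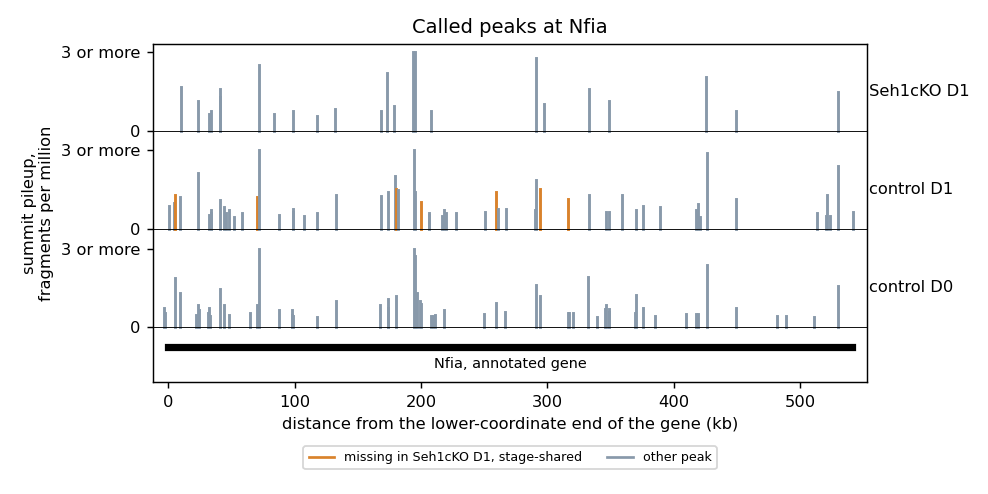
Called peaks over Nfia in Seh1cKO day 1, control day 1 and control day 0, as bars at the distance of the peak from the lower-coordinate end of the gene (horizontal axis, kb), with height the summit pileup in FPM, drawn up to 3. The 7 missing peaks are coloured in the control day 1 row, where they reach 1.04 to 1.53; in the Seh1cKO row there are 24 peaks, against 62 in each control row, or 38.7% of control day 1, where all peaks of the libraries give 38.9%.

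The gene lists were compared with the background shares of 17.3% of genes with a missing peak and 16.1% of stage-shared peaks missing. The 30 lineage regulators had missing peaks at 16 genes, and 37 of their 148 stage-shared peaks, or 25% (18.3 to 32.8), were missing. At the shares of their strength classes 25 peaks would be missing. Nfia, Tcf4 and Zeb2 held 18 of the 37, from 46 stage-shared peaks, and the other genes of the list 19 of 102, or 18.6%. These 3 were picked out after the counts were seen. The median ratio of control day 1 to control day 0 was 1.28 for the missing peaks of this list, against 1.66 for all missing peaks.

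Sox2 had a missing peak 7388 bp away (chr3:34659849-34660274) with 3.72 FPM in control day 1 and 1.84 in control day 0. Etv5, an Ets factor gene, had 3.23 in control day 1 and 1.37 in control day 0 at a gene-end peak (chr16:22438500-22438953). Sox8, a close relative of Sox10, had 3 missing peaks, the strongest with 3.01 in control day 1 and 1.5 in control day 0 (chr17:25575425-25576124). That peak lay 4739 bp from Sox8 and 3050 bp from a nearer gene. Control day 1 was 2.03, 2.36 and 2.01 times control day 0 at these 3 sites, and the nearest Seh1cKO peaks lay 3943, 523 and 2820 bp away. Sox10 itself had 1 missing peak, with 1.75 in control day 1 and 1.32 in control day 0, and Nkx2-2, a homeobox factor of the lineage, had 3, with 1.10 to 2.19 in control day 1 and 1.03 to 1.88 in control day 0. The nearest Seh1cKO peak lay 465 bp from the Sox10 peak and 552 to 6096 bp from those of Nkx2-2. Olig2 had 1 of 4 stage-shared peaks missing, a site of 154 bp 2623 bp from the gene with 1.53 in control day 1 and 3.08 in control day 0. It lay 1 bp from a Seh1cKO peak, and its day 0 partner overlapped a Seh1cKO peak too.

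Progenitor genes had missing peaks at 10 of 24 genes and for 21 of 122 stage-shared peaks, or 17.2%, near the background of 16.1%. The strongest lay within Sema5a (chr15:32505930-32506535), an axon guidance gene, with 3.67 FPM in control day 1 and 0.769 in control day 0. Hes5, a Notch effector that holds progenitors undifferentiated, had 2.35 in control day 1 and 1.32 in control day 0 at 2112 bp from the gene. Sox6, which represses early differentiation, had 4 missing peaks, the strongest with 2.19 in control day 1 and 0.513 in control day 0. Pdgfra, the receptor for PDGF-AA, had 1 of 4 stage-shared peaks missing, with 1.48 in control day 1 and 1.58 in control day 0.

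Myelin and new oligodendrocyte genes had missing peaks at 9 of 28 genes and for 12 of 89 stage-shared peaks, or 13.5%. Their missing peaks had a median ratio of control day 1 to control day 0 of 1.80. Nfasc, which encodes the adhesion protein neurofascin, held a peak (chr1:132732292-132732881) with 3.07 FPM in control day 1 and 0.684 in control day 0. Mbp, the gene of myelin basic protein, held 2 missing peaks of 9 stage-shared ones, the stronger with 1.86 in control day 1 and 0.598 in control day 0 at 20864 bp from a gene end. At this Mbp peak and at the Nfasc peak the day 0 partner does not cover the day 1 summit, so the paired values compare different positions. Mobp and Fa2h, of myelin structure and myelin lipid synthesis, had weaker ones, with 1.20 and 1.15 in control day 1 and 0.470 and 0.555 in control day 0. The Gjc3 promoter printed above belongs to this list.

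Thyroid hormone genes had missing peaks at 9 of 19 genes and for 14 of 63 stage-shared peaks, or 22.2% (12.7 to 34.5). At the shares of their strength classes 8.18 would be missing. Thra, the gene of the thyroid hormone receptor α, had a missing peak 104 bp from its end (chr11:98740085-98740672) with 3.45 FPM in control day 1 and 1.41 in control day 0. Slc16a10, a transporter gene for thyroid hormone and aromatic amino acids, had 2.19 in control day 1 and 0.427 in control day 0. The ratio of control day 1 to control day 0 was 2.45 at Thra and 5.13 at Slc16a10. Ncoa2, a coactivator gene, had 2.46 in control day 1 and 2.48 in control day 0 at a gene-end peak 235 bp from a Seh1cKO peak, and its day 0 partner overlapped a Seh1cKO peak.

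Nuclear pore genes had missing peaks at 6 of 29 genes and for 7 of 52 stage-shared peaks, or 13.5%. Seh1l itself had 3 stage-shared peaks and none missing. Nup107, also of the Y complex, had 1 of 3 missing, with 1.26 FPM in control day 1 and 1.24 in control day 0. It lay 8717 bp from Nup107 and within another gene. A peak within Nup62, of the central channel, had 1.20 in control day 1 and 0.684 in control day 0, and one 5070 bp from Aaas had 2.25 in control day 1 and 1.11 in control day 0. The peak counted at Aaas lay 309 bp from a nearer gene. SWI/SNF genes had missing peaks at 10 of 25 genes and for 17 of 93 stage-shared peaks, or 18.3%. Brd7 had 1 stage-shared peak, which was kept. Arid1a, Arid1b and Smarcd3, subunit genes of the complex, had strongest missing peaks of 2.35, 2.19 and 2.14 in control day 1 and 1.03, 0.983 and 1.24 in control day 0. The nearest Seh1cKO peaks lay 128, 1488 and 2623 bp away in the same order.

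The lists for other functions and cell types ran between 4.88% and 23.3%. Cell cycle genes had 11 of 76 stage-shared peaks missing, or 14.5%. Housekeeping genes had 4 of 51, or 7.84%, and sterol synthesis genes 2 of 41, or 4.88%. Astrocyte markers had 10 of 59, or 16.9%, neuron markers 10 of 43, or 23.3%, endothelial and mural markers 4 of 21, or 19%, and microglia and macrophage markers 2 of 15, or 13.3%. The share for neuron markers lay between those for lineage regulators and thyroid hormone genes, and the interval of each list but the lineage regulators includes 16.1%.

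**Figure D5:**
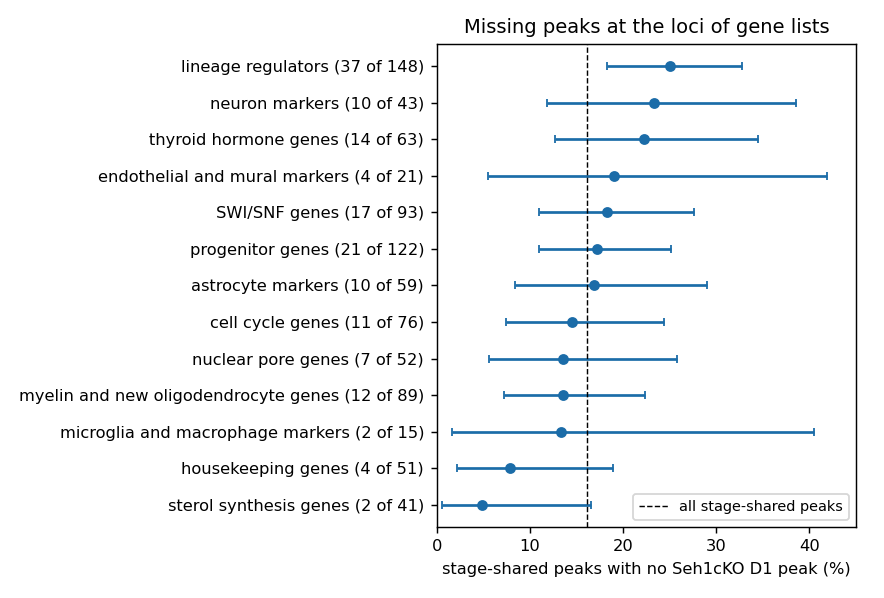
Share of stage-shared peaks within 10 kb of the genes of each list that had no Seh1cKO peak, in percent (horizontal axis), with the number missing of the number stage-shared in brackets; points are shares, bars 95% exact binomial intervals, and the dashed line the share over all stage-shared peaks, 16.1%. The interval for lineage regulators, 18.3 to 32.8, lies above the line, and those of the other lists cross it.

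Near microRNA genes, 17 missing peaks, or 0.332% (0.194 to 0.532), lay within 1000 bp of one of 919 autosomal hairpins, against 130 kept peaks, or 0.487% (0.407 to 0.578). One of them, chosen after the values were seen, lay 781 bp from Mir219a-1, which encodes miR-219, a microRNA that promotes oligodendrocyte differentiation in mouse. It was also counted at Rxrb, the gene of a partner of the thyroid hormone receptor, from which it lay 5795 bp away. Its nearest gene was H2-Ke6. The peak (chr17:34025873-34026017) had 2.14 FPM in control day 1 and 1.92 in control day 0, and a Seh1cKO peak lay 1075 bp away. The 2 control stages were thus close at this site, with a ratio of 1.11. The mature sequences of this hairpin, from RefSeq (GRCm38.p6), are given with their seeds, bases 2 to 8, in capitals. The 2 arms have different seeds.
mmu-miR-219a-5p: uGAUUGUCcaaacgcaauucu
mmu-miR-219a-1-3p: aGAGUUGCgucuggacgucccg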

How the data were processed

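ATAC-seq peak tables of 3 libraries, 1 per group, were analysed. The submitters' processing notes name MACS2, Bowtie2 and SAMtools, and the build mm10. Per the file headers, MACS 2.1.2_dev called each library separately on paired-end fragments with duplicates kept, no input library, a q cutoff of 0.05 and a minimum peak length of 100 bp. Kept duplicates can raise a pileup. The deposited tables give each peak's pileup signal at the summit in fragments, its fold enrichment as a ratio to local background, and its significance as −log10 of the p-value and −log10 of the q-value. Both −log10 columns had lost their headings in the deposited tables and were identified by recomputing Poisson p-values (100% of peaks within 0.01).

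Pileups were scaled to FPM, fragments per 1000000 of the fragments that each header states. Overlap meant at least 1 bp, and each missing peak was paired with its strongest overlapping day 0 peak. That peak need not cover the day 1 summit, so a ratio can compare summits at different positions. Genes are 21887 protein-coding genes of RefSeq GRCm38.p6, and a gene's locus extends 10 kb past its ends. A peak counted at a listed gene can therefore lie nearer to another gene. Positions are 1-based in mm10. Shares have 95% exact Clopper-Pearson intervals, taken over peaks or promoters. They cover counting error only, because each group has 1 library and neighbouring peaks are not independent. The fragments carry no molecular identifiers and may be copies of each other. Values at the shares of strength classes sum the share missing in each class over a list's peaks. No test between groups was possible. The overlap and annotation steps were tested on simulated data. Python 3.11.15, pandas 2.3.3, numpy 2.4.6, scipy 1.17.1 and matplotlib 3.10.9 were used.

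Named were the 12 strongest missing peaks, the 8 strongest at gene ends, the 8 genes with most of them, 3 genes from each of 6 lists by strongest peak, the 4 highest and 4 lowest ratios, and 3 peaks on either side of the threshold. Some items under this rule are not reported here. Other genes of the lists were named after their values were seen. The peaks and lists were chosen with earlier results of these data known. Of 330 list entries 12 lay on a sex chromosome and 1 symbol matched no gene. Other assays named in the series design were not analysed here.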

Additional observations from a re-analysis of the deposited data

How the results depend on the processing

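Missing peaks had a lower gene-end share than kept peaks in the main analysis, and the values of the missing peaks moved with the definition as follows, out of 39 alternative values of which 9 stayed within their error or within 1.5 times. With a pileup of at least 2 FPM there were 773 missing peaks, 4.71% of stage-shared peaks, with 12.5% at gene ends, 56.3% within genes, a median width of 459 bp and a median day 1 to day 0 ratio of 2.44. When 50% of a peak had to be covered to count as overlapped there were 7156, 26.4% of stage-shared peaks, with 18.3% at gene ends, 49.8% within genes, 436 bp and a ratio of 1.48. When a Seh1cKO peak within 500 bp removed a peak, 4424 were left, 13.9%, with 8.84% at gene ends, 54.3% within genes, 361 bp and 1.73. When all 3 lists were limited to a −log10 q of 5 or more there were 7125, 25.3%, with a width of 413 bp and a ratio of 1.48. With lists shortened to equal length there were 3113, 11.1%, with 11.5% at gene ends, 53.8% within genes, 378 bp and 1.53. A window of 2000 bp gave 21.3% at gene ends and 46.7% within genes. The last alternatives were chosen after seeing the data: listed transcription starts gave 14.2% at gene ends, and leaving out peaks whose day 0 partner overlaps a Seh1cKO peak gave 4824, 11.9% at gene ends, 358 bp and 1.71. The cause of these shifts was not tested. The lower Seh1cKO depth limits what its missing calls show, since a site can be open below the lowest pileup called, 0.553 FPM. No paired analysis was possible because each group has 1 library.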

Other observations

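Missing peaks were spread over all autosomes. The share of stage-shared peaks that were missing was lowest on chromosome 7, at 13.1%, and highest on chromosome 1, at 18.9%, around 16.1% over all. Of the missing peaks 49.9% had another one within 100 kb and 3.66% had one within 1000 bp.

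Other missing peaks within 1000 bp of a microRNA hairpin included one 601 bp from Mir26a-1, at chr9:119032486-119032940, with 2.03 FPM in control day 1 and 0.726 in control day 0. One 580 bp from Mir129-1 had 1.26 in control day 1 and 0.726 in control day 0. Among cell cycle genes the strongest missing peak lay 670 bp from Top2a, the gene of a DNA topoisomerase of dividing cells, with 3.23 in control day 1 and 1.11 in control day 0, and a Seh1cKO peak lay 388 bp away. A missing peak 614 bp from Mcm5, a subunit gene of the replicative helicase, had 1.20 in control day 1 and 4.23 in control day 0. It lay 287 bp from a Seh1cKO peak, and its day 0 partner also overlapped one.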
